A study of Mus musculus x Rattus norvegicus with 2 samples.

Results

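The 38 genes described here are genes of cell division, read in droplet single-cell RNA data of mouse-rat chimeric lung. They were taken by symbol from the joint gene set of both libraries, where all 38 were among the 55403 mouse features and 37 among the 25399 rat features (Ccnb2 was not found by symbol among the rat features). In the control library, mouse cells of strain C57BL/6 and cells of a wild-type SD rat host made up a chimeric lung at E20.5. The mutant library was lung of the same strains and age from a rat host with the genotype Nkx2-1-/-. Nkx2-1 encodes a homeodomain factor without which lung epithelium does not develop, and the mouse cells were not labelled as carrying a mutation of it. There was 1 library per group, and the labels do not give the number of embryos behind a library, so no difference below had a replicate check and no test was run. Intervals are 95% intervals that cover counting error only.

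Dividing cells copy their DNA in S phase and separate the copies in mitosis, and each phase has its own transcripts. The MCM helicase and its partners open the DNA at replication origins, and clamp, nucleotide and repair enzymes follow behind it. Late in the cycle Cdk1 with its cyclins drives entry into mitosis, kinesins and kinetochore proteins move the chromosomes, and the ubiquitin ligase APC/C, with Ube2c and Cdc20, ends it. RNA of these genes is low in resting cells, so a lower level in a tissue can come from fewer dividing cells or from less of the RNA in each of them. The lung grows by division of its epithelial, vascular and mesenchymal cells late in gestation, and division falls as these cells mature.

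For this reason the share of cycling cells and the level within cycling cells were taken apart. A cell was called cycling if it held at least 3 unique molecular identifiers (UMIs, each 1 counted molecule) of Top2a, Mki67, Cdk1 and Ube2c together. These 4 genes are called the gate genes below, and their levels in cycling cells are a description only, since they chose the cells. Top2a, the topoisomerase that untangles chromosomes, lies on the minus strand of chromosome 11 (mm10, 98992943 to 99024189). Mki67, which coats mitotic chromosomes, lies on chromosome 7 (135689784 to 135716361, minus strand), and the kinase gene Cdk1 on chromosome 10 (69335146 to 69352938, minus strand). Ube2c, the ubiquitin-conjugating enzyme of APC/C, lies on chromosome 2 (164769898 to 164778822, plus strand). The other 34 members were the readout within cycling cells.

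Rat Nkx2-1 went from 5044 UMIs (control) to 1 (mutant), and mouse Nkx2-1 from 17888 to 9766. The libraries held 123047433 and 103627303 UMIs in 11129 and 10918 barcodes, of which 9021 and 8990 were kept. After species calling and removal of doublets, 7260 control and 8498 mutant mouse cells and 725 and 79 rat cells were analysed, and the members had 781961 and 154753 UMIs in kept mouse barcodes. Cells were put into classes by cluster and marker RNA. In both libraries 10 of 10 fixed markers reached 10 counts per 1000000 UMIs (CPM) in the epithelial, endothelial, mesenchymal and immune classes. Most clusters were largely of 1 library, so a cluster may stand for a library and not for a cell type, and the clusters behind comparisons of types are given. The libraries shared 47 barcode sequences.

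The share of cycling cells was lower in the mutant library in each mouse class, with overlapping intervals in the erythroid and mesothelial classes. Over all mouse cells it was 42.4% in the control (3081 of 7260) and 9.10% in the mutant library (773 of 8498). The epithelium differed by the most. There 59.4% of control cells (531 of 894, interval 56.1 to 62.6%) and 2.69% of mutant cells (57 of 2117, interval 2.05 to 3.47%) were cycling, a 22.1-fold difference. In the mesenchyme the shares were 36.8% (1518 of 4129, interval 35.3 to 38.3%) and 5.14% (218 of 4240, interval 4.50 to 5.85%), a 7.15-fold difference. In the endothelium they were 45.5% (737 of 1621, interval 43.0 to 47.9%) and 23.4% (456 of 1948, interval 21.5 to 25.3%), a 1.94-fold difference. The intervals of the libraries did not overlap in these 3 classes.

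**Figure D1:**
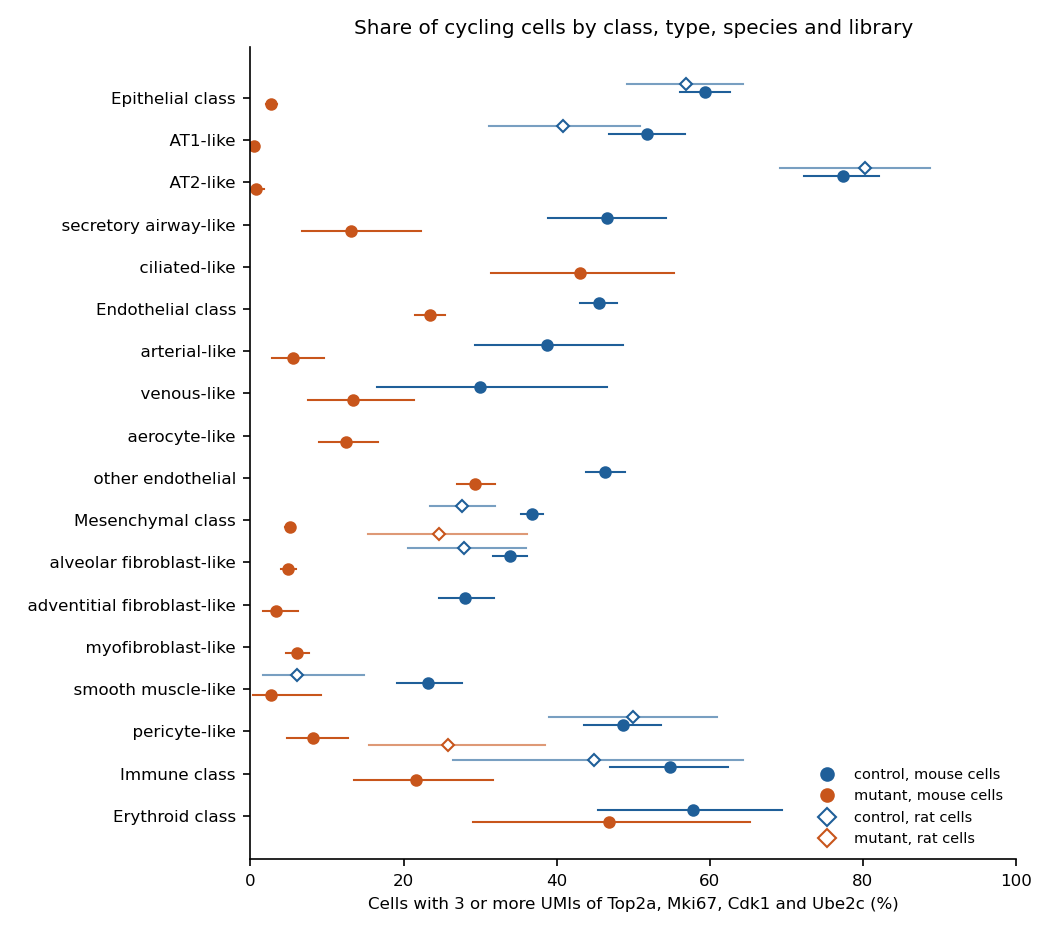
Share of cycling cells (horizontal axis, percent of the cells of a class or type) for mouse cells (filled circles) and rat cells (open diamonds) of the control (blue) and mutant (orange) libraries; lines are exact 95% intervals. The mouse epithelial shares sit at 59.4% and 2.69%, and the endothelial shares at 45.5% and 23.4%; the ciliated-like cells of the mutant library stand at 43.1%.

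Depth differed between the groups, so each cell was also thinned to 3000 UMIs and called cycling at 2 or more gate UMIs. The thinned shares were 46.0% and 1.98% in the epithelium, 52.8% and 21.0% in the endothelium and 30.6% and 3.46% in the mesenchyme. Control endothelial cells were shallow, with a median of 3538 UMIs against 7524 in the mutant library, and thinning left out 729 and 199 of them. The unthinned endothelial shares lay closer together than the thinned ones, which came from fewer cells, and the part of depth in this was not tested. A gate that used none of the same genes gave the same order. With at least 3 UMIs of the replication genes Mcm3, Mcm5, Mcm6, Rrm2, Tyms and Pclaf, 62.2% and 2.13% of epithelial, 49.4% and 24.5% of endothelial and 40.1% and 4.48% of mesenchymal cells passed.

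Free RNA gave gate UMIs too, more so in the control library. Rat genes in mouse cells reached 3 gate UMIs in 0.303% of control cells and in 0 of 8498 mutant cells, which allows up to 0.0353%. Mouse genes in barcodes with fewer than 500 genes, which may also hold broken cells, reached it in 7.15% of control and 1.79% of mutant barcodes, at median depths of 619 and 971 UMIs. The members summed to 2386 CPM (control) and 578 CPM (mutant) of the mouse UMIs in these barcodes. Of the rat UMIs in mouse cells they made up 6129 and 276 CPM. No class free of dividing cells was at hand. The mutant epithelial share without the ciliated-like cells described below, 1.27% (26 of 2045, interval 0.832 to 1.86%), lay below that 1.79%.

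Within the epithelium the shares of the alveolar types were furthest apart. AT1-like cells, the flat cells of gas exchange, were cycling in 51.8% of the control (213 of 411, cluster m10) and 0.481% of the mutant library (5 of 1040, cluster m3). AT2-like cells, which make surfactant, were cycling in 77.4% (230 of 297, cluster m15) and 0.782% (5 of 639, cluster m8). Both mutant shares were below the 1.79% of barcodes with few genes, and are not read as above background. By the replication gate 1.06% of AT1-like (11 of 1040) and 2.35% of AT2-like cells (15 of 639) passed in the mutant library. Secretory airway-like cells, of cluster m20 in both libraries, were cycling in 46.5% (80 of 172) and 13.1% (11 of 84). In the mutant library 43.1% of ciliated-like cells (31 of 72, cluster m28) passed the gate, and of the 10 control cells of that cluster 8 did.

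Shares of the endothelial types were also lower in the mutant library. Arterial-like cells were cycling in 38.7% of the control (41 of 106, cluster m26) and 5.50% of the mutant library (11 of 200, cluster m21). Venous-like cells of cluster m24 were cycling in 30% (12 of 40, interval 16.6 to 46.5%) and 13.3% (14 of 105, interval 7.49 to 21.4%), and these intervals overlapped. Aerocyte-like cells, the capillary cells that span the air-blood barrier, were named in the mutant library, where 12.4% were cycling (38 of 306, cluster m16). The endothelial cells left without a type, mostly of clusters m5 and m6 (control) and m2 (mutant), held most of the cycling cells, with 46.4% (684 of 1475) and 29.4% (393 of 1337). In cluster m5, the one large endothelial cluster with over 100 cells of each library, 31.0% (228 of 736) and 24.1% (39 of 162) were cycling, with overlapping intervals. Its cells were shallow, with medians of 1524 and 1396 UMIs, and only 102 and 14 of them could be thinned. The surfactant gene Sftpc was among its top genes against other endothelial cells in both libraries, so this cluster is a weak basis for comparing them.

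Shares of the mesenchymal types were lower as well. Alveolar fibroblast-like cells were cycling in 33.8% (601 of 1776, cluster m1) and 4.89% (102 of 2084, cluster m0). Pericyte-like cells, which wrap capillaries, stood at 48.6% (192 of 395, cluster m11) and 8.13% (17 of 209, clusters m22 and m11). Adventitial fibroblast-like cells were at 28.1% (175 of 623) and 3.4% (10 of 294, cluster m17), where the control cells came from clusters m13 (17.5%, 63 of 359) and m19 (42.4%, 112 of 264). Smooth muscle-like cells stood at 23.2% (92 of 397, cluster m12) and 2.63% (2 of 76, cluster m29). Myofibroblast-like cells, named in the mutant library alone, were at 6.05% (61 of 1009, cluster m4). Cluster m7, of shallow cells of both libraries, held 39.5% (149 of 377) and 2.34% (9 of 385).

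Thinning kept the order of the libraries in each of these types. The thinned shares were 35.7% and 0.405% in AT1-like, 65.0% and 0.48% in AT2-like and 37.5% and 6.58% in secretory airway-like cells, and 26.4% in the ciliated-like cells of the mutant library. They were 30.9% and 6.22% in arterial-like, 28.6% and 10.6% in venous-like and 56.7% and 27.0% in untyped endothelial cells. In the mesenchyme they were 28.4% and 3.11% in alveolar fibroblast-like, 44.0% and 6.60% in pericyte-like, 22.6% and 2.41% in adventitial fibroblast-like and 13.4% and 1.33% in smooth muscle-like cells.

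Over all cells of a class, cycling or not, each of the 38 members was lower in the mutant library in the epithelium, the endothelium and the mesenchyme. Of all genes tested 57.6%, 55.8% and 55.8% were lower there, in the same order. A difference is given as log2 of mutant over control CPM after adding 10 CPM to both, and past the fold means a size of at least 1. In the epithelium all 38 members were lower past the fold, with a median of -2.73, where 11.6% of the 9799 genes tested were lower past it. The mesenchyme had 37 lower past the fold and a median of -2.24, beside 5.91% of all genes, and the endothelium 18 and a median of -0.96, beside 3.87%. Summed over the members, the level was 7898 and 597 CPM in epithelium, 7079 and 1039 CPM in mesenchyme, and 9710 and 4634 CPM in endothelium. In bulk sums like these, fewer cells of a kind and less RNA per cell cannot be told apart.

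The orders of the genes were not compared as a whole, but the genes at their ends were alike in epithelium and mesenchyme and others in endothelium. Ube2c was lowest in both of the former, at 519 and 8.29 CPM in the epithelium (-4.86) and 323 and 18.2 CPM in the mesenchyme (-3.56). Pclaf, a partner of the replication clamp, followed, at 292 and 5.78 CPM (-4.26) and 275 and 17.1 CPM (-3.39). Slbp, the histone mRNA binding protein, differed by the least there, with -1.64 and -0.90, the latter being the 1 mesenchymal member short of the fold. In endothelium Hmgn2 (640 and 198 CPM, -1.64) and Mcm3 (178 and 54.2 CPM, -1.55) stood lowest, and Ube2c (-1.35) and Pclaf (-1.29) were past the fold as well. The spindle motor gene Kif11 (79.0 and 74.6 CPM, -0.07) and Top2a (426 and 380 CPM, -0.16) were nearly level.

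**Figure D2:**
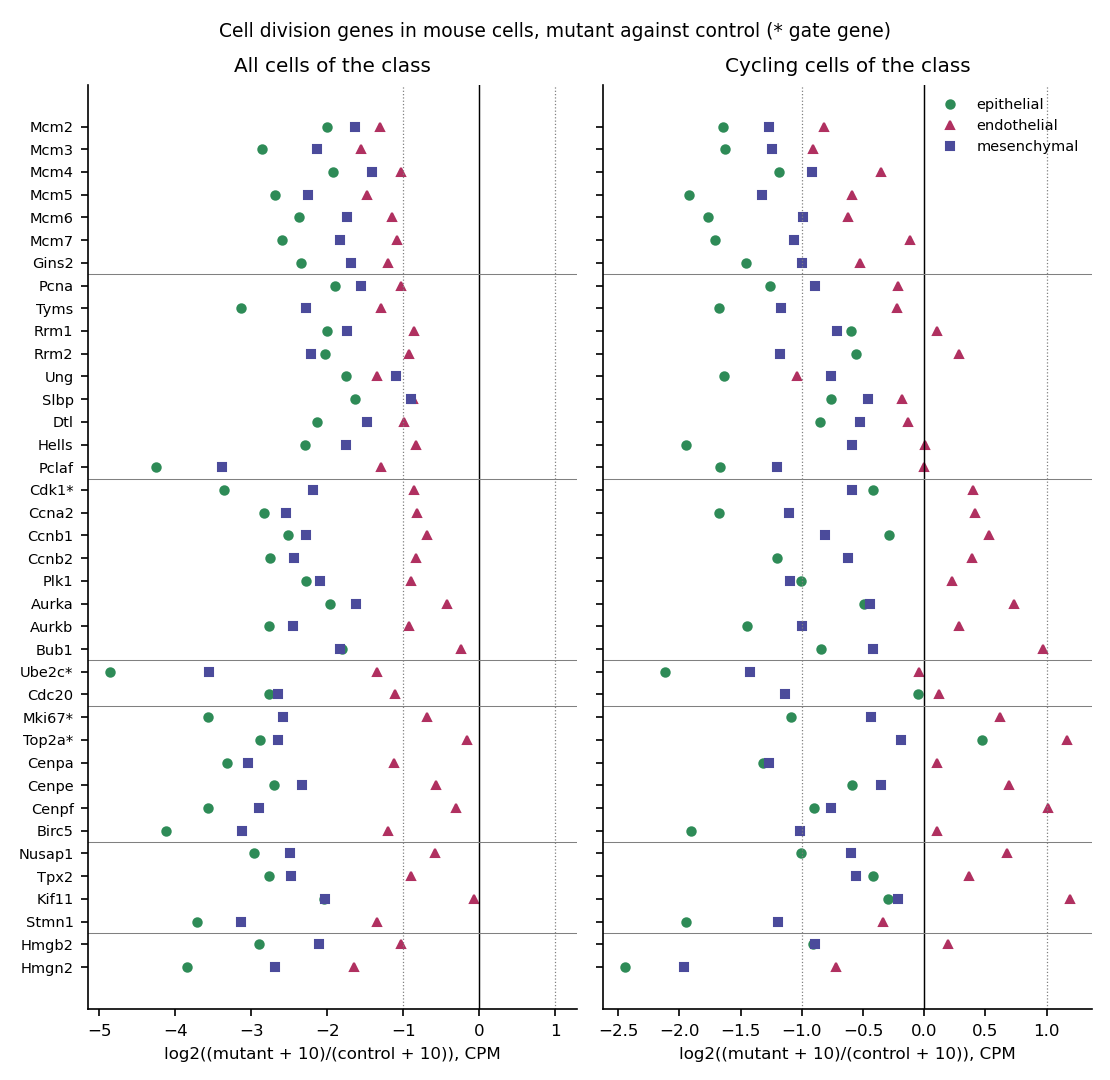
log2 of mutant over control after adding 10 CPM for the 38 members (vertical axis, grouped by role; an asterisk marks a gate gene) over all cells (left) and over cycling cells (right) of mouse epithelium (green circles), endothelium (red triangles) and mesenchyme (blue squares); dotted lines mark a size of 1. All symbols on the left lie below 0, from -4.86 to -0.07, while on the right the endothelial symbols lie on both sides of 0.

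The summed difference was split exactly into a part from the share of the UMIs that cycling cells held, a part from the level within cycling cells and a part from the level within other cells. Cycling cells held 89.4% and 5.31% of the epithelial UMIs, 77.8% and 30.4% of the endothelial and 47.9% and 6.97% of the mesenchymal UMIs. In the epithelium the share part was 54.2% of the difference (-3954 CPM), the part from cycling cells 32.7% (-2389 CPM) and the part from other cells 13.1% (-958 CPM). The mesenchyme divided in much the same way, with 54.8% (-3311 CPM), 27.4% (-1654 CPM) and 17.8% (-1074 CPM). In the endothelium the share part was 88.0% (-4467 CPM) and the other cells gave 27.1% (-1374 CPM). The level within cycling endothelial cells went the opposite way, by 765 CPM. The size of the share part depended on the processing. Over the 17 alternatives run it was 42.0 to 64.4% in epithelium, 67.9 to 100.5% in endothelium and 41.6 to 66.9% in mesenchyme. The free RNA described above also held more of the members in the control library, and its part in the level within other cells was not tested.

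With the share of the control kept and the levels of the mutant library put in, the median log2 difference of the 38 members was -1.21 in epithelium, 0.03 in endothelium and -0.90 in mesenchyme. For single genes the share part was the largest of the 3 in size for 28 members in epithelium, 29 in endothelium and 31 in mesenchyme. These medians and counts include the gate genes too.

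**Figure D3:**
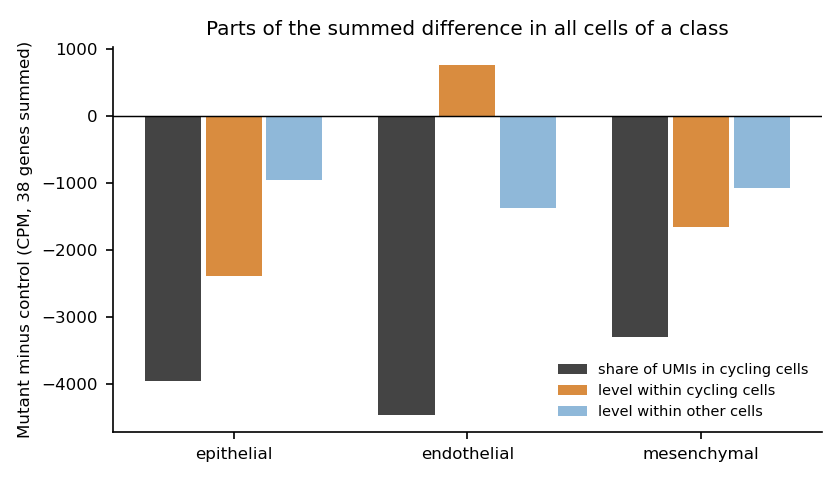
Parts of the mutant minus control difference of the 38 members summed (vertical axis, CPM) in all mouse cells of a class: from the share of UMIs in cycling cells (black), the level within cycling cells (orange) and the level within other cells (blue). The black bars reach -3954, -4467 and -3311 CPM, and the endothelial orange bar alone is above 0, at 765 CPM.

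Within cycling cells the 3 classes parted. In cycling epithelial cells all 34 members outside the gate were lower in the mutant library, 21 of them past the fold, with a median of -1.23, beside 6.55% of 10571 genes lower past the fold. None of the 34 was higher past it there, beside 19.9% of those genes. The types behind these epithelial cells differed between the libraries. Of the 531 control cells 213 were AT1-like and 230 AT2-like, and of the 57 mutant cells 31 were ciliated-like and 11 secretory airway-like. The class difference is thus not one within a type. In cycling mesenchymal cells all 34 were lower as well, 16 past the fold, with a median of -0.95, beside 2.93% of 9901 genes. In cycling endothelial cells 15 were lower and 19 higher, with a median of 0.10. There 1 was lower past the fold, beside 3.06% of 9340 genes, and 2 were higher past it, beside 9.54%. Between the libraries 15 members were lower in all 3 classes, and 19 were lower in epithelium and mesenchyme and higher in endothelium. Of all genes tested in cycling cells 46.3% were lower in epithelium, 54.9% in endothelium and 51.9% in mesenchyme. The difference between the classes was not tested.

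Counts by role below cover cycling cells and include the gate genes. The origin helicase genes were lower in all 3 classes. The 6 MCM genes encode the ring that unwinds DNA, and Gins2 a part of the complex that activates it. In cycling epithelial cells all 7 were lower past the fold (median -1.64), from 522 to 121 CPM summed. Mcm7, on chromosome 5 (138164583 to 138172422, minus strand), had 107 CPM (control, interval 103 to 111) and 25.6 CPM (mutant, interval 18.1 to 35.3), from 3126 and 37 UMIs. Mcm5 (67.2 and 10.4 CPM, -1.92) was the lowest of them. In mesenchymal cycling cells 5 of 7 passed the fold (median -1.06, 696 and 289 CPM summed), with Mcm5 again lowest at 90.8 and 30.3 CPM (-1.32). In endothelial cycling cells all 7 were lower and 0 past the fold (median -0.59, 802 and 522 CPM summed). Mcm3 differed by the most there (-0.91), with 193 CPM (interval 185 to 201) and 98.1 CPM (interval 89.5 to 107), and Mcm7 differed by the least (-0.12).

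The DNA synthesis and repair genes followed the same order. Of 9, all were lower in epithelium and mesenchyme, 5 and 3 past the fold (medians -1.26 and -0.76), and 6 were lower in endothelium (median -0.13). Pclaf had 324 CPM (interval 317 to 330) and 95 CPM (interval 79.7 to 112) in cycling epithelial cells (-1.67). In cycling mesenchymal cells it had 544 and 230 CPM (-1.21). In endothelial ones it had 333 and 332 CPM, with overlapping intervals. Hells, a chromatin remodeler of replicating DNA, was at 87.2 and 15.2 CPM in epithelium (-1.94) and at 101 CPM in both endothelial sets. The replication clamp Pcna stood at 153 and 58.2 CPM in epithelium, 203 and 105 CPM in mesenchyme and 211 and 180 CPM in endothelium. Ung, which removes uracil from DNA, was the endothelial member lower past the fold, at 30.2 CPM (355 UMIs) and 9.54 CPM (46 UMIs), -1.04. Rrm1, a subunit of the enzyme that makes deoxynucleotides, was at 129 and 139 CPM in endothelium and the intervals overlapped.

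The mitotic kinases and cyclins turned with the class. All 8 were lower in epithelium (4 past the fold, median -0.93) and in mesenchyme (3 past the fold, median -0.72), and all 8 were higher in endothelium (0 past the fold, median 0.41). The gate gene Cdk1 was at 250 and 184 CPM in cycling epithelial cells, 402 and 265 CPM in mesenchymal and 356 and 472 CPM in endothelial ones. Its cyclin Ccnb2 followed it, with 101 and 38.1 CPM, 197 and 124 CPM, and 166 and 220 CPM. Ccnb1, the other mitotic B cyclin, was among the smallest epithelial differences, at 79.1 and 63.1 CPM (-0.29). The checkpoint kinase gene Bub1 was at 36.5 and 15.9 CPM in epithelium (-0.84), 82.5 and 59.0 CPM in mesenchyme (-0.42) and 53.0 and 113 CPM in endothelium (0.97).

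The pair of the mitotic ubiquitin system differed from each other. Ube2c was at 578 CPM (interval 569 to 587) and 125 CPM (interval 108 to 145) in cycling epithelial cells, at 651 and 236 CPM in mesenchymal and at 602 and 583 CPM in endothelial ones. Cdc20, which carries substrates to APC/C, was at 130 and 125 CPM in epithelium (-0.05), the smallest epithelial difference, with overlapping intervals. The ciliated-like cycling cells of the mutant library held 164 CPM of Cdc20. Without the ciliated-like cluster, left out after seeing the data, Cdc20 was at 129 CPM (control) and 72.2 CPM (mutant), so it was lower there as well. In mesenchyme Cdc20 was at 182 and 77.3 CPM (-1.14), and in endothelium at 209 and 228 CPM (0.12).

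The chromosome and centromere genes also turned with the class. The 4 outside the gate were all higher in endothelium, with Cenpf (1.01), Cenpe (0.69), Birc5 (0.11) and Cenpa (0.10), and all lower in epithelium and mesenchyme, 2 of them past the fold in each. The gate gene Top2a had 537 CPM (interval 524 to 550) and 1216 CPM (interval 1185 to 1248) in cycling endothelial cells (1.16). In epithelium Top2a was the one member higher in the mutant library, at 302 and 422 CPM (0.47), and in mesenchyme it was at 699 and 610 CPM (-0.19). Mki67 was at 260 and 117 CPM, 439 and 679 CPM, and 496 and 363 CPM in epithelium, endothelium and mesenchyme. Cenpf, a kinetochore protein gene on chromosome 1 (189640606 to 189688086, minus strand), was at 322 and 660 CPM in endothelium (1.01), from 3791 and 3182 UMIs. It was at 232 and 119 CPM in epithelium (-0.90) and at 420 and 244 CPM in mesenchyme (-0.76). Cenpa, the centromeric histone, was at 421 and 169 CPM in mesenchyme (-1.27), and Cenpe, a kinetochore motor, at 217 and 168 CPM (-0.35).

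Among the spindle genes Kif11 and Stmn1 lay at opposite ends. Kif11, the motor that pushes spindle poles apart, lies on chromosome 19 (37376403 to 37421859, plus strand). It was at 97.9 CPM (interval 92.3 to 104) and 236 CPM (interval 222 to 250) in cycling endothelial cells, the largest endothelial difference (1.19). In epithelium it was at 56.8 and 44.4 CPM (-0.30) and in mesenchyme at 139 and 119 CPM (-0.21), among the smallest differences in each. Stmn1, a microtubule-destabilizing protein gene on chromosome 4 (134468320 to 134473843, plus strand), was at 1658 and 424 CPM in epithelium (-1.94), 1582 and 685 CPM in mesenchyme (-1.20) and 2012 and 1593 CPM in endothelium (-0.34). Nusap1, a microtubule-bundling protein gene, was at 125 and 57.5 CPM, 255 and 165 CPM, and 197 and 322 CPM in the same order.

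Of the chromatin proteins, Hmgn2, which binds nucleosomes, had the largest difference in epithelium and in mesenchyme. Hmgn2 lies on chromosome 4 (133964738 to 133968650, minus strand). It was at 787 CPM (interval 777 to 798) and 137 CPM (interval 118 to 157) in cycling epithelial cells (-2.44). It was at 1006 and 251 CPM in mesenchymal (-1.96) and 690 and 415 CPM in endothelial cycling cells (-0.72). Its RNA was not that of cycling cells alone, since control cells outside the gate held 509 CPM in epithelium, 464 CPM in endothelium and 556 CPM in mesenchyme. Hmgb2, which bends DNA, was at 1439 and 763 CPM in epithelium (-0.91), 2207 and 1186 CPM in mesenchyme (-0.89) and 1903 and 2174 CPM in endothelium (0.19).

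How far inside the gate the cells lay differed between the libraries. The median cycling epithelial cell held 41 (control) and 12 (mutant) gate UMIs, the median mesenchymal one 14 and 4, and the median endothelial one 13 and 21. Of the 218 cycling mesenchymal cells of the mutant library 84 held exactly 3 gate UMIs, the lowest that passes. At 2 gate UMIs, just outside the gate, were 261 mutant and 365 control mesenchymal cells. The level of the 34 members outside the gate grew with the gate UMIs in each class and library, so sets of cells that differ in gate UMIs are not alike in level.

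The size of the mesenchymal difference depended on the gate UMIs at which cells were compared, from 2.06-fold over all cycling cells. In cells with 10 or more gate UMIs (888 control, 69 mutant) the summed level of the 34 members was 12309 and 10045 CPM, a 1.23-fold difference, and with 3 or 4 gate UMIs (345 and 110 cells) it was 4028 and 968 CPM, a 4.16-fold difference. With 5 to 9 it was 2.26-fold, so the gap was narrower than over all cycling cells in the highest group alone. Epithelial cells with 10 or more (408 and 29 cells) had 7488 and 4018 CPM, a 1.86-fold difference, against 2.47-fold at 5 to 9, 4.81-fold at 3 or 4 and 2.68-fold over all cycling cells. Endothelial cells with 10 or more (419 and 301 cells) had 9851 and 11765 CPM, and those with 0 to 2 had 3915 and 1052 CPM. The endothelial cells with 0 to 2 had median depths of 2277.5 (control) and 7042 UMIs (mutant), so they were not alike in depth. With a gate of at least 10 UMIs, chosen after seeing the data, the mesenchymal count of members lower past the fold was 2 (Hmgn2 and Mcm5) in place of 16, and the median was -0.32. With a gate of at least 5 UMIs the count was also 2, for the same genes. The share of all genes past the fold is not given for these gates.

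**Figure D4:**
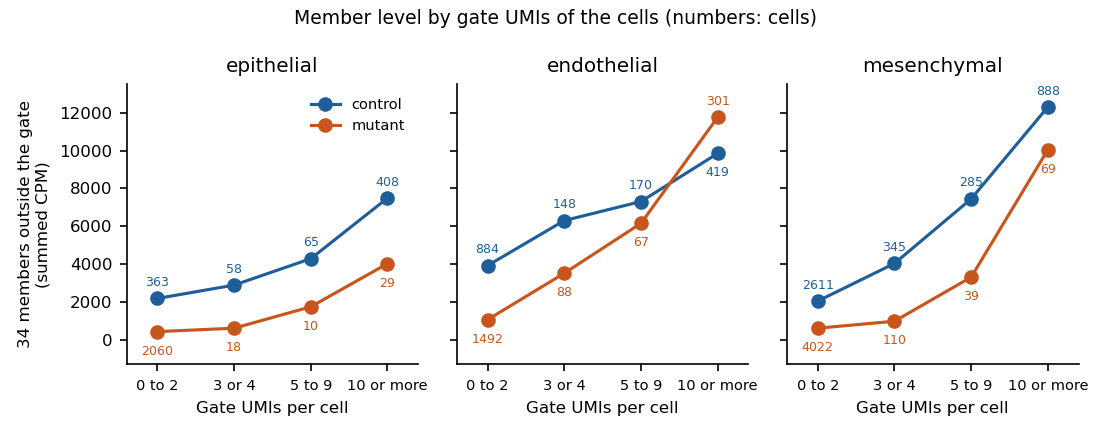
Summed level of the 34 members outside the gate (vertical axis, CPM) in mouse cells grouped by their gate UMIs (horizontal axis), for the control (blue) and mutant (orange) libraries; the numbers beside the points are cells. In mesenchyme the gap narrows from 4028 against 968 CPM at 3 or 4 gate UMIs to 12309 against 10045 CPM at 10 or more, and in endothelium the lines cross.

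A single cluster held many of the low cycling cells in epithelium and another in mesenchyme. In the mutant epithelium 31 of the 57 cycling cells were ciliated-like. Their gate UMIs were 63.1% Top2a, 22.5% Cdk1, 7.82% Mki67 and 6.57% Ube2c, against 21.7%, 18%, 18.7% and 41.6% in control epithelium, and 19.4% of them also passed the replication gate. Of all cycling epithelial cells 87.9% (control) and 28.1% (mutant) passed it. The 34 members outside the gate were at 1922 CPM in the ciliated-like cycling cells and at 3699 CPM in the 26 other cycling cells of the mutant epithelium, against 7206 CPM in the control without that cluster. Without the ciliated-like cluster, left out after seeing the data, 13 members were lower past the fold in place of 21, and the median was -0.84. Hmgn2 (-1.87), Hells (-1.37), Mcm5 (-1.31), Mcm7 (-1.30) and Stmn1 (-1.18) were among the 13. The share of all genes past the fold is not given without that cluster.

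In the mutant mesenchyme 61 of the 218 cycling cells were myofibroblast-like. Of their gate UMIs 54.1% were Mki67 and 14.2% Top2a, 37 of the 61 held exactly 3 gate UMIs, and 8.20% passed the replication gate. Their summed level of the 34 members was 1036 CPM, against 5423 CPM in alveolar fibroblast-like and 8004 CPM in pericyte-like cycling cells of the same library. Without this cluster, left out after seeing the data, 4 members were lower past the fold in cycling mesenchymal cells in place of 16 (Hmgn2, Mcm5, Mcm2 and Mcm3), with a median of -0.67, and the share of cycling cells was 4.86% against 36.7%. Here too no share of all genes past the fold is given. Of all cycling mesenchymal cells 76.0% and 37.6% passed the replication gate, and of the endothelial ones 77.1% and 73.9%.

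**Figure D5:**
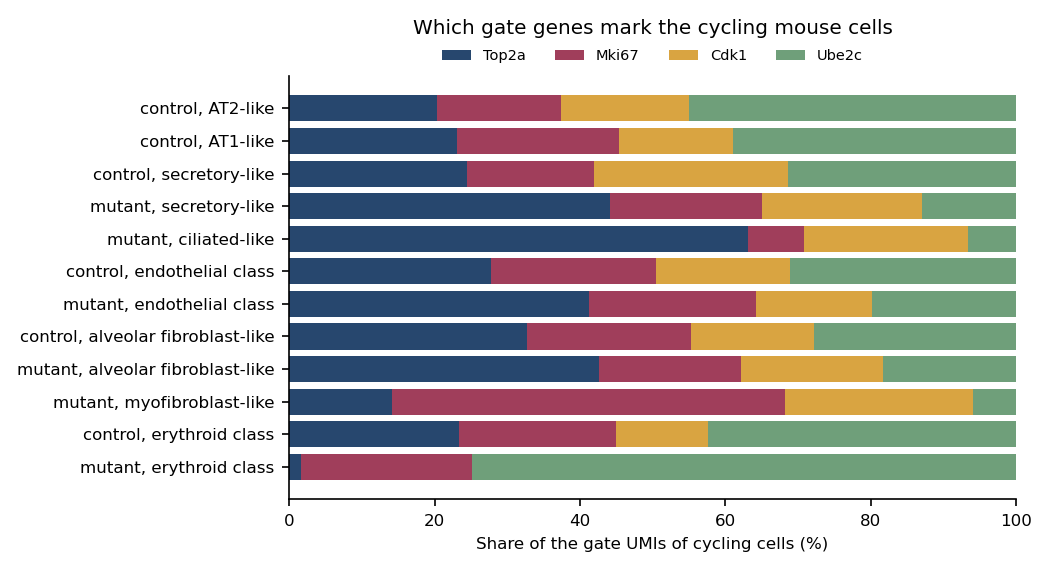
Percent of the gate UMIs of cycling mouse cells (horizontal axis) that came from Top2a, Mki67, Cdk1 and Ube2c in named types and classes of each library. Top2a takes 63.1% in mutant ciliated-like cells, Mki67 54.1% in mutant myofibroblast-like cells and Ube2c 74.8% in mutant erythroid cells, where control endothelial cells have 27.8% Top2a, 22.7% Mki67 and 31.1% Ube2c. Mutant endothelial cells have 41.2% Top2a, 23.0% Mki67 and 19.8% Ube2c.

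Cells chosen by the replication gate instead gave the gate genes as a readout that had not chosen the cells. Of these cells 84.0% (control) and 35.6% (mutant) in epithelium were also cycling by the 4 gate genes. In endothelium 70.9% and 70.5% were, and in mesenchyme 69.7% and 43.2%. The epithelial and mesenchymal sets thus differed in their share of cycling cells, so their levels do not tell fewer cycling cells from less RNA in each. In 801 control and 478 mutant endothelial cells Top2a was at 481 and 995 CPM (1.03) and Kif11 at 87.2 and 185 CPM (1.00), and 0 of 32 members were lower past the fold. In 556 and 45 epithelial cells 32 of 32 members were lower, 20 past the fold, with a median of -1.23; Ube2c was at 563 and 142 CPM (-1.92) and Top2a at 294 and 249 CPM (-0.23). In 1655 and 190 mesenchymal cells 32 of 32 were lower and 5 past the fold, with a median of -0.73. The 5 were Ube2c, Hmgn2, Stmn1, Cenpa and Cdc20. No share of all genes past the fold is given for the cells of the replication gate, so these counts have no background beside them.

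Types differed in how near they lay to the values of their class. In alveolar fibroblast-like cycling cells (601 and 102) Hmgn2 was at 1142 and 281 CPM, Pclaf at 583 and 219 CPM and Top2a at 779 and 678 CPM. In pericyte-like ones (192 and 17) Hmgn2 was at 820 and 266 CPM, while Top2a was higher in the mutant library, at 682 CPM (interval 646 to 718) and 1110 CPM (interval 996 to 1233), and Mcm7 was at 119 and 176 CPM with overlapping intervals (104 to 135 and 133 to 230). In arterial-like ones (41 and 11) Top2a was at 349 and 1665 CPM and Kif11 at 80.9 and 248 CPM. Secretory airway-like cycling cells (80 and 11) had Pclaf at 224 and 253 CPM with overlapping intervals, Hmgn2 at 607 and 214 CPM and Top2a at 238 and 431 CPM. The ciliated-like cycling cells had 13.2 CPM of Pclaf, from 11 UMIs, and 484 CPM of Top2a, from 403 UMIs.

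The software that made the matrices differed between the libraries, and its part in a difference cannot be told apart from that of the group. Differences varied with intron length. Version 7 of Cell Ranger, used for the mutant library, counts intronic reads by default. Among all genes tested in cycling cells, the median difference was -0.40 in endothelium for genes with under 10 kb of intron and 0.28 for those with 20 kb or more. Among the members outside the gate it was -0.00 for the 19 with under 10 kb and 0.68 for the 9 with 20 kb or more, which include Kif11 and Cenpf. The members' medians were -1.45 and -0.86 in epithelium, beside -0.32 and 0.43 for all genes, and -1.10 and -0.56 in mesenchyme, beside -0.39 and 0.32. Taken relative to genes of like intron length, the medians in cycling cells were -1.02, 0.33 and -0.62 in epithelium, endothelium and mesenchyme. Relative values of Kif11 (1.12) and Cenpf (1.01), and of Aurka (1.05), were past the fold in endothelium, and Top2a over all endothelial cells came to 0.00. In cycling endothelial cells the relative value of Mcm7 was 0.32, and the other origin helicase genes lay from -0.62 (Mcm3) to -0.03 (Mcm4). Pclaf (0.34), Pcna (0.22), Slbp (0.13), Tyms (0.11) and Stmn1 (0.11) also came out above 0 there, where without this step they were lower.

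Other genes of the cell cycle are given beside the same shares of all genes as above, 6.55% lower and 19.9% higher past the fold in epithelium, 3.06% and 9.54% in endothelium and 2.93% and 11.7% in mesenchyme. Lower by any size were 46.3%, 54.9% and 51.9% of all genes in the same order. The differences of these other genes are not taken relative to genes of like intron length. Of 28 further replication genes measured in cycling epithelial cells 27 were lower, 16 past the fold, with Rpa2 (-1.77) and Dut (-1.76) lowest and Gins4 (-0.11) and Pola1 (0.30) highest. Of 44 further mitotic genes 36 were lower there, 11 past the fold, and Nek2 (22.8 and 90.1 CPM, 1.61) and Ckap2l (1.30) were higher past it. Endothelial cycling cells had 18 of 29 replication genes lower and 0 past the fold, from Cdt1 (-0.92) to Pola1 (42.5 and 153 CPM, 1.63), and 42 of 45 mitotic genes higher, with Ect2 (1.41) and Ttk (1.24) highest and Cks1b (-0.62) lowest. The 5 of these 45 higher past the fold are a share near that of all genes. Mesenchymal cycling cells had 27 of 29 replication genes lower (3 past the fold) and 41 of 45 mitotic genes lower (5 past the fold), with Cks1b lowest (443 and 151 CPM, -1.49).

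Of 12 cell cycle transcription factors E2f1, which drives S-phase genes, was lowest in each class, at 42.2 and 15.9 CPM in epithelial (-1.01), 71.0 and 36.7 CPM in endothelial (-0.79) and 36.6 and 17.4 CPM in mesenchymal cycling cells (-0.77). Rb1, which holds E2F factors in check, was highest in each, at 16.1 and 48.5 CPM (1.17), 17.9 and 78.4 CPM (1.66) and 12.1 and 47.3 CPM (1.38). Neither gene is given relative to genes of like intron length, and the part of the software in these differences was not tested. In all, 9 of 12 were lower in epithelium, 2 of 12 in endothelium and 8 of 11 measured in mesenchyme.

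Rat cells of the control library were compared with the mouse cells beside them. Rat epithelial cells were cycling in 56.9% (99 of 174, interval 49.2 to 64.4%, overlapping that of mouse cells), and thinned shares were 37.2% in rat (interval 30 to 44.9%) and 46.0% in mouse cells (interval 42.6 to 49.4%). Rat AT2-like cells were cycling in 80.3% (57 of 71, cluster r5) and rat AT1-like cells in 40.8% (42 of 103, cluster r1). Rat mesenchymal cells were cycling in 27.6% (123 of 446, interval 23.5 to 32.0%), below the mouse interval of 35.3 to 38.3%, but the thinned intervals overlapped (25.6%, 21.5 to 29.9%, and 30.6%, 29.1 to 32.2%). Rat pericyte-like cells stood at 50% (43 of 86, cluster r2), beside 48.6% of mouse ones. In smooth muscle-like cells the intervals did not overlap, with 6.06% of rat (4 of 66, cluster r6, interval 1.68 to 14.8%) and 23.2% of mouse cells (interval 19.1 to 27.6%). Thinned, these were 6.15% and 13.4%, with overlapping intervals (1.70 to 15% and 10.2 to 17.3%).

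The mutant library had 79 rat cells, of which 62 were pericyte-like (cluster r8). Of these 25.8% were cycling (16 of 62, interval 15.5 to 38.5%), where 8.13% of mouse pericyte-like cells of the same library were (interval 4.81 to 12.7%). After thinning the shares were 18.3% and 6.60%, and by the replication gate 25.8% and 14.8%, and in both cases the intervals overlapped. In rat pericyte-like cycling cells the members summed to 13933 CPM in the control (43 cells) and 14645 CPM in the mutant library (16 cells), while in the other pericyte-like cells they summed to 3121 and 1100 CPM. Rat Top2a was at 951 and 2068 CPM in those cycling cells, Kif11 at 124 and 316 CPM, Stmn1 at 2059 and 1816 CPM and Hmgn2 at 1051 and 764 CPM. Rat Mcm7 rested on 54 and 3 UMIs (103 and 13.7 CPM).

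Blood cells were few. Immune mouse cells were cycling in 54.8% (92 of 168) and 21.6% (19 of 88), and neutrophil-like cells of cluster m25 in 67.0% (69 of 103) and 33.3% (13 of 39), or 45% and 12.0%, and 51.5% and 13.2%, after thinning. Erythroid cells stood at 57.7% (41 of 71) and 46.9% (15 of 32) with overlapping intervals, and at 54.2% and 22.6% after thinning. Of the gate UMIs of the 15 mutant erythroid cells 74.8% were Ube2c, 1.63% Top2a and 0% Cdk1, and 0 of 32 passed the replication gate, which allows up to 9.38%. Those 15 cells had 591 CPM of the 34 members, against 6787 CPM in the control. Erythroid markers held 582559 CPM in mutant and 282917 CPM in control erythroid cells, which left fewer CPM for all other genes. Over all genes tested in cycling erythroid cells the median difference was -1.09, and 81.6% were lower.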

How the data were processed

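Per the labels' protocols, E20.5 lungs were dissociated and sequenced with the 10x Genomics 3' v3 chemistry. The authors deposited UMI counts per gene and barcode, unscaled; Cell Ranger 6.0.1 wrote the control and 7.0.1 the mutant matrix, per the file headers, and whether introns were counted is not given in the sources used here. Builds mm10 and rn6 and Seurat 4.3 are named per the submitters' processing notes.

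Barcodes with at least 500 genes and at most 20% mitochondrial UMIs were kept, called mouse or rat at 90% of UMIs, and dropped at a Scrublet score of 0.2 or more (sets under 200 cells, here the 79 mutant rat cells, went unscored). Each species was clustered by itself in Scanpy 1.11.5 (Leiden resolution 1, 2000 variable genes without cell cycle genes, 30 components, 15 neighbours) and named "-like" from marker RNA. UMIs were summed per class and given as CPM. Members were measured at 10 CPM in either library. Intervals are exact Poisson or Clopper-Pearson. Introns were read from GENCODE vM21. Scripts were tested on simulated data.

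The members and gene lists were chosen with earlier results of these data known. Full values are given for the gate genes, the 3 members with the largest and smallest difference in cycling cells of each class and the 1 or 2 with the most RNA of each role, and the 2 genes at each end of other lists.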

Additional observations from a re-analysis of the deposited data

Results flagged for a closer look

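Cenpf and Kif11 went opposite ways between the classes in cycling mouse cells, which was not tested, since each group had 1 library. Cenpf differed by 1.01 in endothelium, -0.90 in epithelium and -0.76 in mesenchyme (log2 of mutant over control after adding 10 CPM). Kif11 differed by 1.19 in endothelium, -0.30 in epithelium and -0.21 in mesenchyme. The sign of Cenpf was kept in each class over the settings tried. That of Kif11 was kept in endothelium, from 0.95 to 1.43, but not in epithelium (-0.79 to 0.41) or mesenchyme (-0.91 to 0.54), where a gate of at least 10 UMIs gave 0.18 and 0.54.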

How the results depend on the processing

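No paired analysis was possible because each group had 1 library. Where a value below moved, the cause was not tested. Log2 ratios of the share of cycling cells, -4.46 in epithelium, -0.96 in endothelium and -2.84 in mesenchyme, were below 0 under each of the 17 alternatives run. They came to -3.79 in epithelium and -2.01 in mesenchyme at a gate of 2 UMIs, and to -3.48 in mesenchyme at 5. A gate of 10 UMIs gave -5.06, -0.74 and -3.72. Thinned to 3000 UMIs the ratios were -1.33 in endothelium and -3.15 in mesenchyme at 2 gate UMIs, and -4.91, -1.36 and -3.75 at 3. Replication genes gave -4.87 in epithelium and -3.16 in mesenchyme, and UMIs of 3 gate genes -5.32 and -3.68. Without the ciliated-like cluster epithelium had -5.54. Endothelium had -1.15 with at least 1000 genes and -1.30 without shallow clusters. The alternatives on a gate of 10 UMIs, on 3 gate genes and on the ciliated-like, myofibroblast-like and m14 clusters were chosen after seeing the data.

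The count of members lower past the fold over all cells was 6 in endothelium (in place of 18) and 24 in mesenchyme (in place of 37) with a pseudocount of 50 CPM, and 3 in endothelium relative to genes of like intron length. Within cycling cells of the epithelium (21) it was 8 with that pseudocount, 13 without the ciliated-like cluster and 13 with 3 gate genes. In the mesenchyme (16) it was 30 at a gate of 2 UMIs, 2 at 5, 2 at 10, 3 and 2 after thinning at 2 and 3, 5 with replication genes, 4 with the pseudocount of 50 CPM, 4 without the myofibroblast-like cluster, 2 with 3 gate genes and 2 relative to intron length. In endothelium the 1 lower was 0 with replication genes, the pseudocount of 50 CPM or relative to intron length, and the 2 higher were 1 with doublets kept, 1 at a gate of 2 UMIs and 0 with that pseudocount. Trimmed-mean (TMM) scaling moved the median of all genes in cycling cells from 0.09 to -0.31 in epithelium and from -0.03 to -0.19 in mesenchyme, with 26 and 20 members then lower past the fold. Shares of all genes past the fold are not given for the alternatives.

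In all cells 38, 37 and 38 members kept their sign over the settings in epithelium, endothelium and mesenchyme, and in cycling cells 28, 23 and 27 of 34 did, replication genes aside. The 57 mutant epithelial cycling cells, with 6 UMIs of Ung and 10 of Mcm2, limit what can be read of single genes there.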
